A study of Mus musculus with 3 samples.

Results

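The mitochondrial ribosomal protein genes are the 77 genes whose RefSeq symbol is Mrpl or Mrps followed by a number, 48 named for the large subunit and 29 for the small subunit. They were taken by symbol alone, out of 24402 gene symbols in the transcript files of the 3 libraries, and the rule uses no measured value. Levels are given in FPKM, a read pair count divided by transcript length and by library depth, summed over the transcripts of a gene. With transcripts assembled from the reads included, all 77 genes reached an FPKM of at least 1 in a library, as did 11323 genes of the whole series. With RefSeq transcripts alone 75 of the 77 did, and Mrpl21 and Mrpl42 did not.

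The mitochondrion carries its own ribosome, which translates the few membrane proteins of the respiratory chain and the ATP synthase that mitochondrial DNA encodes. Its RNA is made in the organelle, but all of its proteins are encoded in the nucleus, made by cytosolic ribosomes and imported. Some have a counterpart in the bacterial ribosome, and the others are specific to mitochondria.

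The RNA came from spheroids of 4T1 (CSCsp), a triple negative breast cancer line of the Balb/c mouse grown for 7 days without attachment and kept on a 40 µm strainer, a culture that enriches cells with stem cell properties. In library R the CSCsp were exposed for 2 days to splenocytes of female Balb/c mice that had been injected with 4T1 cells at 8 weeks of age and had carried tumors for 28 days, after those splenocytes had received reinforced activation with beads against CD3 and CD28 and IL2. In library P the exposure was to primed splenocytes of such mice without reinforcement, and in library N the CSCsp had no co-culture. All 3 libraries hold the same cell line with no engineered allele, and each pooled RNA of 4 independent experiments.

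With 1 library per condition no difference below has a replicate check, an SD or a p-value, and intervals cover counting error only. The libraries held 5753694554 aligned bases in R, 5366295654 in P and 5368241780 in N. The assignment of N and P is uncertain. The name under which library N was deposited refers to the saline that held unreinforced splenocytes, and that of library P to no treatment. Libraries and comparisons are named here by their labels. Epithelial genes of the tumor line summed to 1355 FPKM in R, 1558 FPKM in P and 1832 FPKM in N over 5 markers. Of 34 leukocyte markers, 32 of them in the files, 12 reached an FPKM of 1 in R, 3 in P and 11 in N, and their summed FPKM was 93.6 in R, 45.6 in P and 108.5 in N. The defining T cell and B cell markers stayed under 1 FPKM in every library, and those of T cells summed to 1.10 in R, 0.505 in P and 0.562 in N. Macrophage markers summed to 50.6 FPKM in R, 18.7 FPKM in P and 51.8 FPKM in N. Neutrophil markers summed to 22.7 FPKM in R, 13.1 FPKM in P and 36.1 FPKM in N. Both sums were thus higher in N, labelled as without co-culture, than in P. In P most of the leukocyte sum lay on Cd68, Ltf and Lcp1, the 3 markers that reached an FPKM of 1 there. Cd68, a macrophage marker, had 19.2 FPKM in R, 18.04 FPKM in P and 21.4 FPKM in N. Ltf, a neutrophil marker, had 11.3 FPKM in R, 12.3 FPKM in P and 16.1 FPKM in N. Lcp1 had 12.3 FPKM in R, 12.05 FPKM in P and 12.4 FPKM in N. Every other macrophage and neutrophil marker was under 1 FPKM in P. Single markers differed in order. Lyz2 had 6.51 FPKM in R, 0.313 FPKM in P and 28.9 FPKM in N. Mpeg1 had 24.5 FPKM in R, 0.227 FPKM in P and 0.697 FPKM in N. The part of leukocyte RNA in the differences below was not tested, and in such bulk RNA fewer cells of a type and less RNA per cell cannot be told apart.

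Summed over the 77 genes, transcripts of the mitochondrial ribosome were slightly more abundant in R than in either other library, in both subunits. Transcripts of the cytosolic ribosome were less abundant in R. The median log2 ratio of R over N was 0.16 for the 77, beside 0.08 for all genes. It was 0.03 for 7 mitoribosome proteins under other symbols. Beyond counting error, 31.2% of the 77 were higher in R than in N, against 34.2% of all genes. No gene of the 77 differed 2-fold in any comparison. The 77 genes summed to 1503 FPKM in R, 1362 FPKM in P and 1432 FPKM in N, or 0.407% of all FPKM in R, 0.368% in P and 0.375% in N. Of the 77 genes 56 (72.7%) had their highest level in R, against 46.7% of all 11323 genes. Library P held the lowest level of 43 of them (55.8%), against 30.4% of all genes.

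The level of single genes spread far more within each library than between libraries. In R it ran between 2.57 FPKM for Mrpl35 and 82.7 FPKM for Mrpl14, a ratio of 32.2 between proteins that each ribosome holds once. The ratio of the highest to the lowest gene was 41.6 in P, for Mrpl14 over Mrps25, and 42.7 in N, for Mrpl14 over Mrpl19. The median was 14.7 FPKM in R, 12.8 FPKM in P and 13.7 FPKM in N, so that most of the 77 genes lay well under the most abundant few.

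The most abundant member was Mrpl14, which encodes the counterpart of bacterial uL14 at the face between the subunits. It had 82.7 FPKM in R, 91.2 FPKM in P and 98.7 FPKM in N, and was thus lowest in R. In the large subunit Mrpl13, a core protein, followed with 73.3 FPKM in R, 62.5 FPKM in P and 58.2 FPKM in N. Its order over the libraries was the reverse of that of Mrpl14. Next in the large subunit, Mrpl30 had 65.8 FPKM in R, 56.4 FPKM in P and 60.5 FPKM in N. Mrpl38, which is specific to mitochondria, had 53.9 FPKM in R, 43.5 FPKM in P and 52.6 FPKM in N.

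In the small subunit Mrps21 stood first with 66.5 FPKM in R, 67.6 FPKM in P and 72.1 FPKM in N. The next, Mrps34, a mitochondria specific protein, had 35.3 FPKM in R, 27.5 FPKM in P and 35.04 FPKM in N, in a locus shared with the neighbouring gene Nme3. No other small subunit gene was above 26 FPKM in any library, as the plot of levels by gene shows.

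**Figure D1:**
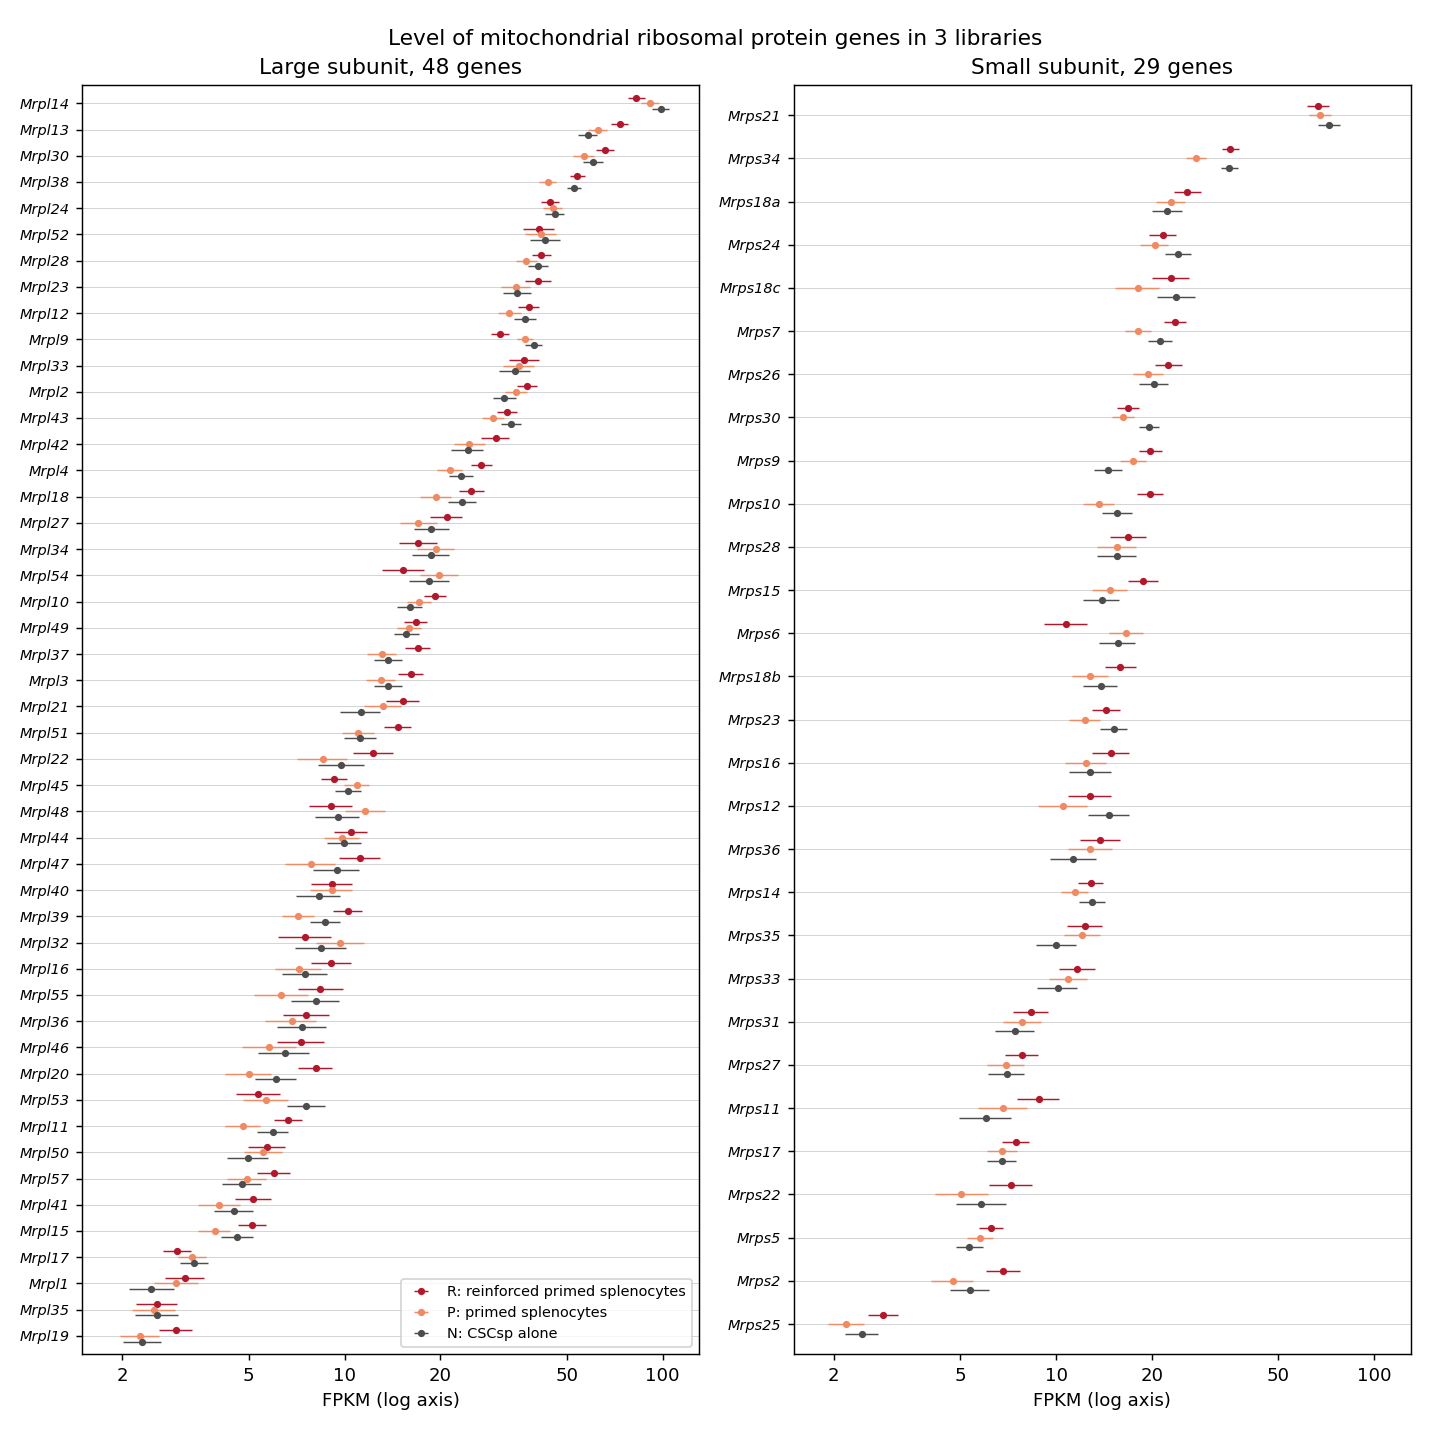
FPKM of each gene (x axis, log scale) in libraries R, P and N, with exact 95% Poisson intervals that cover counting error only, for 48 large subunit genes (left) and 29 small subunit genes (right) ordered by mean level. Mrpl14 and Mrps21 lead their subunits, and the points of 1 gene lie close together compared with the span between genes.

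At the low end Mrpl35 had 2.57 FPKM in R, 2.52 FPKM in P and 2.57 FPKM in N. Mrpl19 had 2.95 FPKM in R, 2.27 FPKM in P and 2.31 FPKM in N. Mrps25 had 2.87 FPKM in R, 2.19 FPKM in P and 2.45 FPKM in N. These low genes have long transcripts, and a link between length and level was not tested. The 10 genes with the lowest mean level had a main transcript of 3572 bases at the median, against 738.5 bases for the 10 with the highest and 1067 bases over the 77. Every member was read by at least 111 fragments in R, 107 in P and 112 in N.

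The first comparison asked how CSCsp facing reinforced splenocytes differed from CSCsp alone. For R over N none of the 77 genes was 2-fold apart, where 5.22% of all 11203 genes compared were. The median log2 ratio was 0.16 for the 77 genes and 0.08 for all genes, with the middle part of the 77, between the quartiles, at −0.02 to 0.27. A higher FPKM in R was found for 56 of 77 genes (72.7%), against a background of 60.3%. For 24 genes the interval of the ratio lay above 1, which is 31.2% of the 77 and near the background of 34.2%. For 5 genes it lay below 1, which is 6.49% against a background of 19.7%.

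The largest ratio of R over N belonged to Mrps11, the counterpart of bacterial uS11 (GRCm38, chromosome 7, 78783131 to 78792988, plus strand). Mrps11 had 8.81 FPKM in R, 6.80 FPKM in P and 6.01 FPKM in N. Its ratio of R over N was 1.47 with a 95% counting interval of 1.15 to 1.88. Mrps9, the uS9 counterpart on chromosome 1 (42851233 to 42905683), had 19.8 FPKM in R, 17.5 FPKM in P and 14.6 FPKM in N, a ratio of 1.36 (1.19 to 1.56). Mrps15, the uS15 counterpart on chromosome 4 (126046928 to 126055536), had 18.8 FPKM in R, 14.7 FPKM in P and 13.9 FPKM in N, a ratio of 1.35 (1.14 to 1.61). These small subunit proteins are all of bacterial descent, and in each the 3 libraries stood in the same order. The genes were chosen for a high ratio of R over N, which sets N under R in advance.

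In the large subunit Mrpl21 had 15.2 FPKM in R, 13.2 FPKM in P and 11.2 FPKM in N, with a ratio of 1.36 (1.13 to 1.64). Its StringTie locus is shared with another gene, so that the division of reads between them is uncertain. Mrpl51, which is specific to mitochondria, had 14.7 FPKM in R, 11.1 FPKM in P and 11.2 FPKM in N, a ratio of 1.31 (1.13 to 1.52). Among the abundant genes Mrpl13 had a ratio of R over N of 1.26 (1.15 to 1.38), resting on 1090 fragments in R and 801 in N.

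A few genes went the other way. Mrps6, the bS6 counterpart, had 10.8 FPKM in R, 16.6 FPKM in P and 15.6 FPKM in N, a ratio of R over N of 0.69 (0.56 to 0.84). Mrpl53, a mitochondria specific protein, had 5.33 FPKM in R, 5.67 FPKM in P and 7.57 FPKM in N, a ratio of 0.70 (0.57 to 0.87). Both genes share a StringTie locus with another gene. Mrpl9, the bL9 counterpart on chromosome 3 (94443336 to 94448708), shares none and had 30.8 FPKM in R, 36.9 FPKM in P and 39.3 FPKM in N, a ratio of 0.79 (0.72 to 0.86). Mrpl14 had a ratio of R over N of 0.84 (0.77 to 0.92). The genes lower in R thus included the most abundant large subunit gene.

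**Figure D2:**
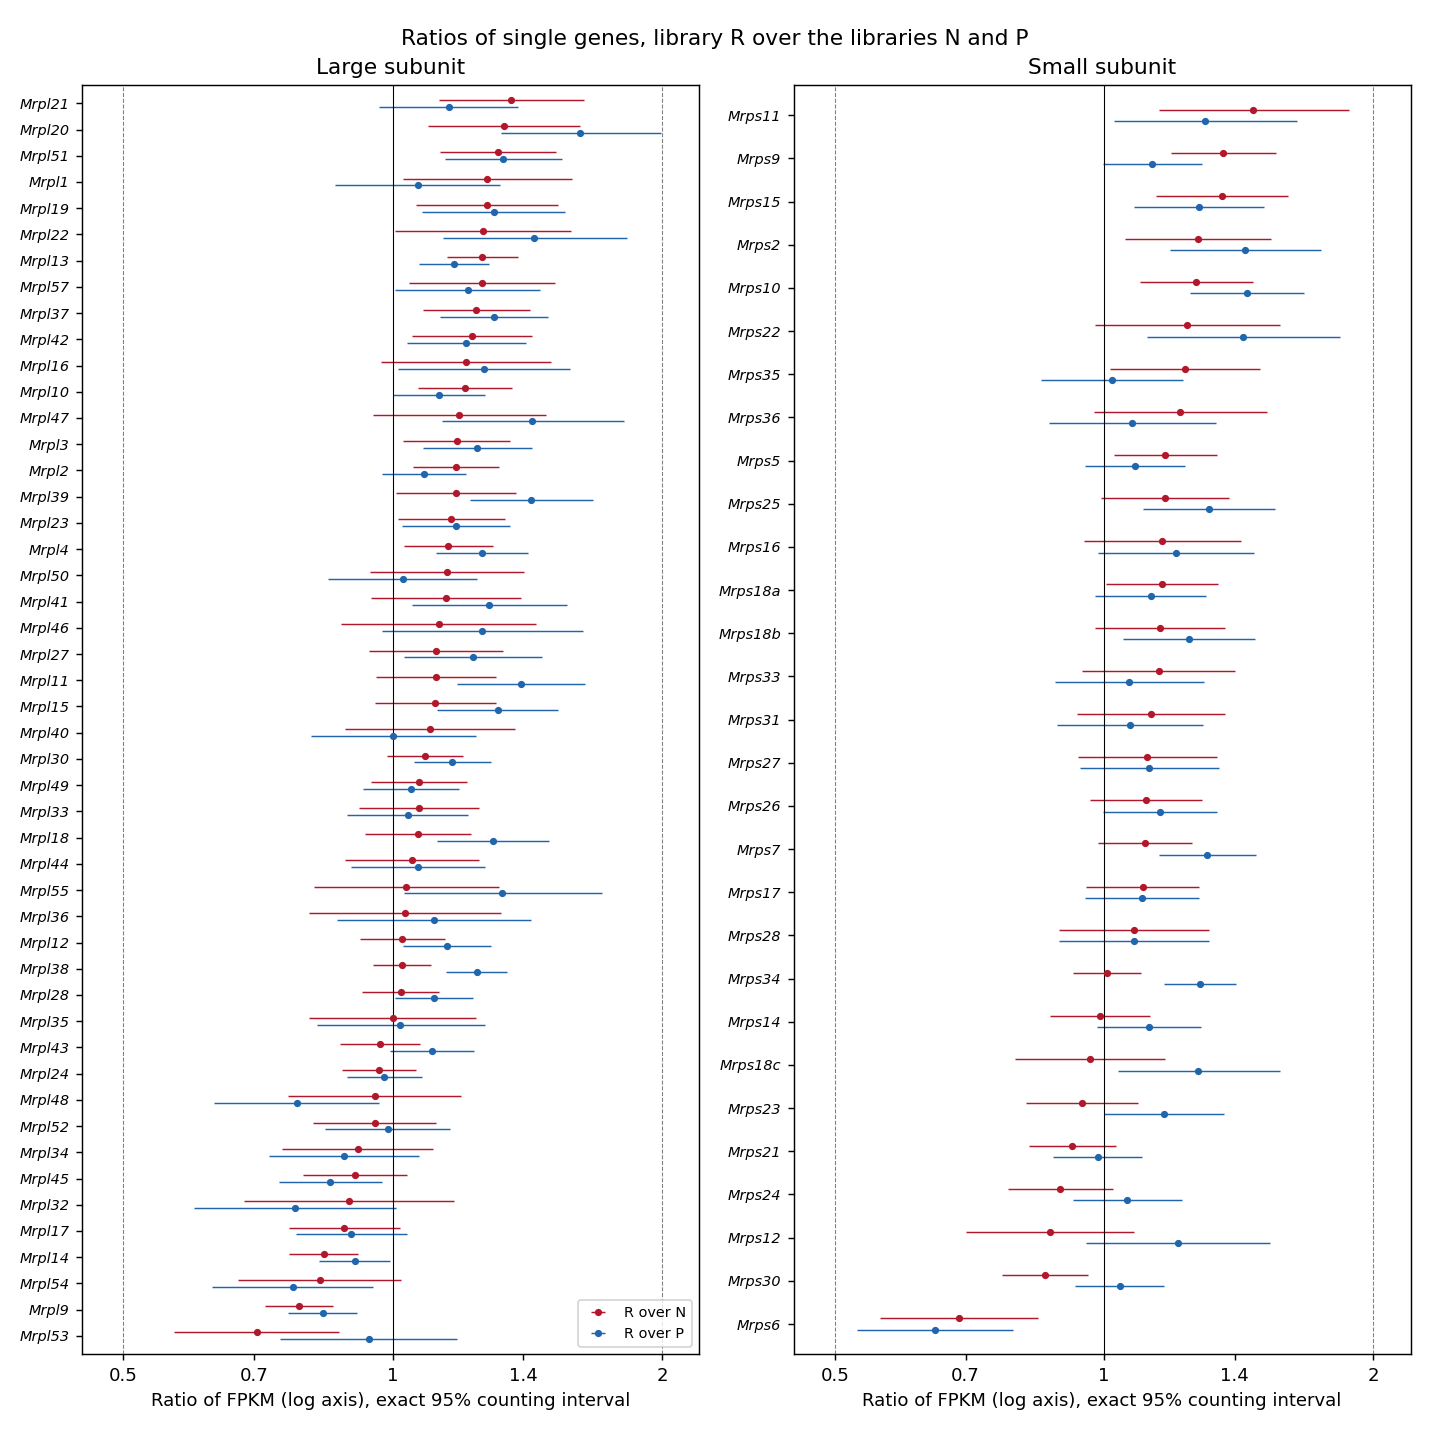
Ratio of FPKM (x axis, log scale) of R over N (red) and of R over P (blue) with exact 95% counting intervals, for large subunit genes (left) and small subunit genes (right) ordered by R over N. Dashed lines mark 2-fold, which no point reaches, and Mrps11 lies at the top and Mrps6 at the bottom of the small subunit.

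The second comparison set reinforced against unreinforced splenocytes. For R over P again no gene of the 77 was 2-fold apart, against 6.13% of all 11214 genes compared. The median log2 ratio was 0.20 for the 77 genes and 0.03 for all genes. A higher FPKM in R was found for 64 of 77 genes (83.1%), against a background of 54.0%. The interval lay above 1 for 34 genes (44.2%, background 30.7%) and below 1 for 6 genes (7.79%, background 24.6%). Since R over P and R over N share library R, they are not independent of each other.

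Only Mrpl20 and Mrps6 reached 1.5-fold in this comparison, in opposite directions. Over all 11214 genes compared, 1048 were at least 1.5-fold higher in R and 608 at least 1.5-fold lower. Mrpl20, the bL20 counterpart on chromosome 4 (155803618 to 155809781), had 8.12 FPKM in R, 5.01 FPKM in P and 6.10 FPKM in N, a ratio of R over P of 1.62 (1.32 to 2.00). Mrps6 had a ratio of R over P of 0.65 (0.53 to 0.79). Mrps10, the uS10 counterpart, had 19.7 FPKM in R, 13.7 FPKM in P and 15.6 FPKM in N, a ratio of R over P of 1.44 (1.25 to 1.67). Mrpl22, the uL22 counterpart at the tunnel through which the new chain leaves, had 12.3 FPKM in R, 8.55 FPKM in P and 9.76 FPKM in N, a ratio of 1.44 (1.14 to 1.83). In these genes higher in R, library P was the lowest of the 3. Their choice by a high ratio of R over P favours this, and P was lowest in 43 of the 77 genes.

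Lower in R than in P were also the mitochondria specific Mrpl54 and Mrpl48. Mrpl54 had 15.3 FPKM in R, 19.8 FPKM in P and 18.4 FPKM in N, a ratio of R over P of 0.77 (0.63 to 0.95). Mrpl48 had 9.09 FPKM in R, 11.6 FPKM in P and 9.52 FPKM in N, a ratio of R over P of 0.78 (0.63 to 0.97). For Mrpl32, the bL32 counterpart, the ratio was 0.78 with an interval of 0.60 to 1.01 that holds 1.

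The third comparison set, going by the uncertain labels of P and N, unreinforced splenocytes against CSCsp alone. For P over N no gene was 2-fold apart, against 2.32% of all 11140 genes compared. The median log2 ratio was −0.05 for the 77 genes and 0.03 for all genes, and a higher FPKM in P was found for 27 of 77 (35.1%) against a background of 56.7%. With the deposited TPM in place of FPKM, 36 genes were higher in P and 41 lower, and after rescaling 24 were higher and 53 lower. The interval lay above 1 for 1 gene (1.30%, background 22.1%), which was Mrps9 with a ratio of 1.20 (1.04 to 1.38), and below 1 for 13 genes (16.9%, background 15.4%).

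Mrps12, the counterpart of bacterial uS12 at the decoding centre, had the lowest ratio of P over N. It had 12.7 FPKM in R, 10.5 FPKM in P and 14.6 FPKM in N, and its ratio of P over N was 0.72 (0.57 to 0.91). Mrps34 had a ratio of P over N of 0.79 (0.72 to 0.86) and Mrpl38 one of 0.83 (0.76 to 0.89). Both were close in R and N, and stood apart in P alone. If the labels of N and P are exchanged, these ratios turn round.

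The median log2 ratios of the large and the small subunit were close in all 3 comparisons. The 29 small subunit genes had a median log2 ratio of 0.17 and the 48 large subunit genes one of 0.15 in R over N, beside 0.08 for all genes. After rescaling by the median ratio these were 0.10 for the small and 0.07 for the large subunit, beside 0.0038 for all genes. In R over P the median was 0.18 for the small and 0.20 for the large subunit. In P over N it was −0.05 for the small and −0.06 for the large subunit. The medians, small minus large, thus differed by 0.02, by −0.03 and by 0.0026 in these 3 comparisons. The share of genes with the highest level in R was 72.4% in the small subunit and 72.9% in the large subunit, against 46.7% of all genes. For R over P 27 small subunit genes (93.1%) were higher in R and 2 lower. Of the large subunit genes 37 (77.1%) were higher in R and 11 lower. Over all genes 54.0% were higher in R, and the counts of the subunits were thus less alike than their medians.

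Summed FPKM of the large subunit was 1018 in R, 932 in P and 971 in N, and that of the small subunit 485 in R, 430 in P and 461 in N. The sum of the large over that of the small subunit was 2.097 in R, 2.17 in P and 2.11 in N. Median levels of the subunits moved less evenly, at 15.0 FPKM in R, 12.3 FPKM in P and 11.2 FPKM in N for the large subunit and 14.4 FPKM in R, 12.8 FPKM in P and 13.9 FPKM in N for the small subunit. The 44 genes listed with a bacterial counterpart and the other 33 also lay close, with a median log2 ratio of R over N of 0.15 over the 44 and 0.17 over the 33. The 33 hold the genes specific to mitochondria and also Mrps18a, Mrps18b and Mrps36.

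**Figure D3:**
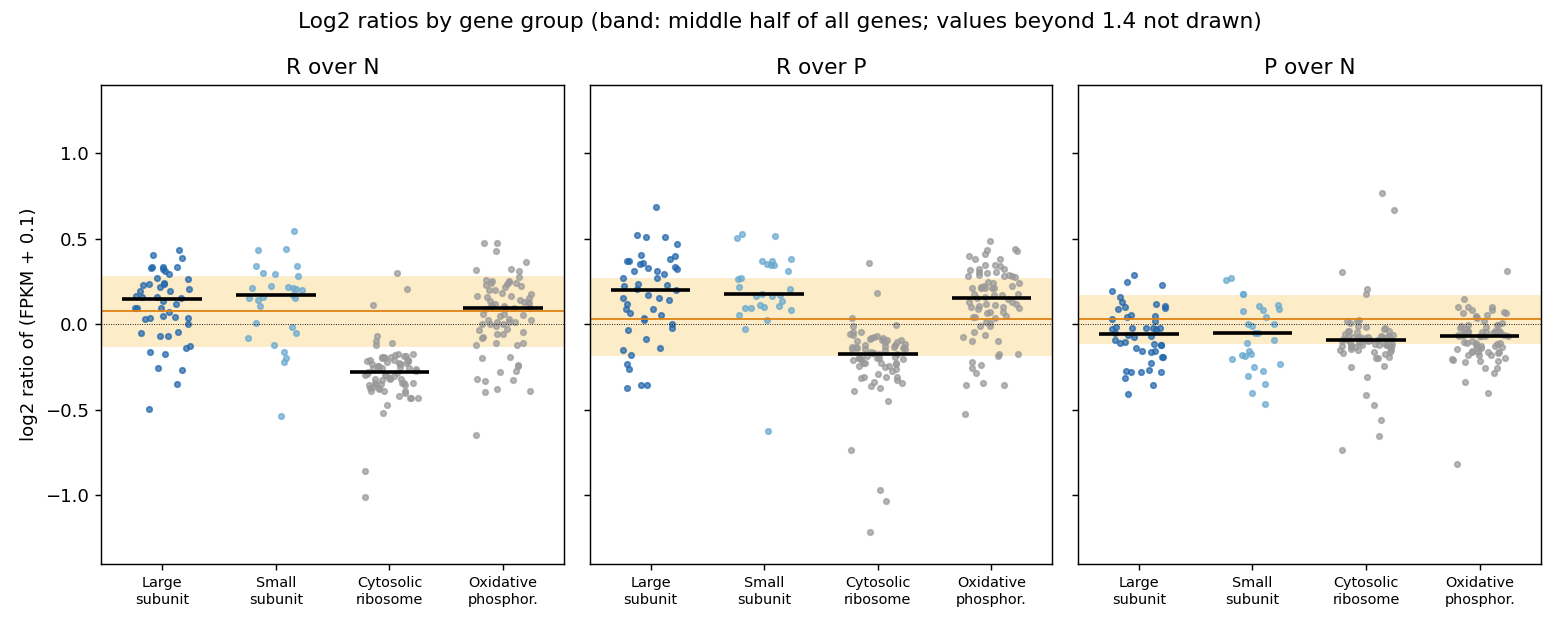
Log2 ratios (y axis, on FPKM + 0.1) for R over N, R over P and P over N, with 1 point per gene and a black bar at the median of large subunit, small subunit, cytosolic ribosome and oxidative phosphorylation genes. The orange line and band mark the median and middle part between quartiles of all genes, and for R over N the medians are 0.15 and 0.17 for the subunits and −0.28 for the cytosolic ribosome.

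For a few genes the symbol does not tell the place of the protein. Mrps30 and Mrps18a carry small subunit names but their proteins sit in the large subunit, and Mrps36 is known as a subunit of the 2-oxoglutarate dehydrogenase complex. Mrps30 had 16.9 FPKM in R, 16.2 FPKM in P and 19.6 FPKM in N, with a ratio of R over N of 0.86 (0.77 to 0.96). Mrps36 had 13.8 FPKM in R, 12.8 FPKM in P and 11.3 FPKM in N, and its ratio of R over N of 1.22 had an interval of 0.98 to 1.52. With these genes placed by structure the difference of medians, small minus large, was 0.02 in R over N and 0.03 in the comparison with P.

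Mammals have 3 paralogs of bacterial S18, of which Mrps18a lies in the large subunit and Mrps18b and Mrps18c in the small subunit. Mrps18a had 25.9 FPKM in R, 23.0 FPKM in P and 22.3 FPKM in N. Mrps18b had 15.9 FPKM in R, 12.8 FPKM in P and 13.8 FPKM in N. Mrps18c had 23.0 FPKM in R, 18.05 FPKM in P and 23.8 FPKM in N. The paralogs differed in where P stood, and for Mrps18c the ratio of P over N was 0.76 (0.61 to 0.93), while for Mrps18a it was 1.03 (0.88 to 1.20).

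Part of the reads lay on transcripts that StringTie had assembled beside the RefSeq models. Of the 77 genes 26 had such transcripts, 40 in all beside 95 RefSeq transcripts, and they carried 14.4% of the FPKM of the 77 genes in R, 16.5% in P and 16.3% in N. In 7 genes they carried most of the level in at least 1 library. For Mrpl42 their share was 99.5% in R, 98.5% in P and 99.99% in N, with an assembled transcript of 678 bases and 6 exons beside a RefSeq transcript of 698 bases and 6 exons with the same start. For Mrps21 it was 86.6% in R, 86.8% in P and 89.7% in N, and the assembled transcript began 927 bases upstream of the RefSeq transcript of the files. A newer RefSeq start of Mrps21 lies 32 bases from that assembled start. For Mrpl24 the share was 74.4% in R, 73.5% in P and 72.1% in N, and the assembled transcript was 1072 bases long against 949 bases with the same ends.

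Mrps34 differs from these, since its assembled transcript ran 1030 bases beyond the end of the RefSeq transcript and took in Nme3, the next gene on the same strand, so that reads of both genes are in its sum. Its assembled share was 57.2% in R, 72.5% in P and 64.8% in N. On its RefSeq transcript alone Mrps34 had 15.1 FPKM in R, 7.56 FPKM in P and 12.3 FPKM in N, with P again the lowest. Other shares moved between libraries too, as the plot of assembled shares shows. In Mrps24 the share was 7.65% in R, 38.8% in P and 8.03% in N, while its summed level was 21.7 FPKM in R, 20.4 FPKM in P and 24.2 FPKM in N. A gene on RefSeq transcripts alone could therefore differ where its sum did not. For Mrps17, the uS17 counterpart, the sum was 7.46 FPKM in R, 6.77 FPKM in P and 6.76 FPKM in N, but RefSeq transcripts alone gave 1.35 FPKM in R, 0.408 FPKM in P and 0.471 FPKM in N.

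**Figure D4:**
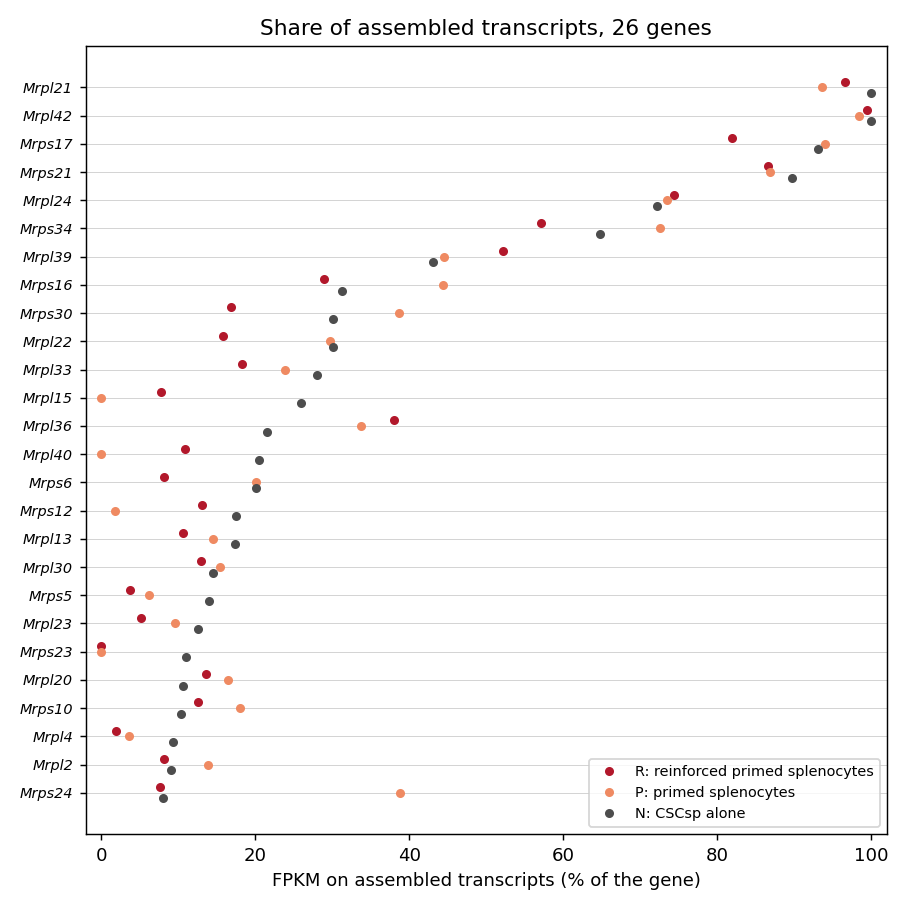
Percent of the FPKM of a gene (x axis) that lay on assembled transcripts in libraries R, P and N, for the 26 genes that had any, ordered by N. Mrpl42 and Mrpl21 lie above 90% in all 3 libraries, and the point of Mrps24 in P stands at 38.8%, far to the right of those in R and N.

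The genes are scattered over 17 chromosomes, and 27 of the 77 begin within 1000 bases of a gene that runs the other way. The share over all genes was not counted, so this count cannot show a trait of the 77. The Mrpl46 and Mrps11 genes share such a start region, so that a large and a small subunit gene are read outward from the same stretch. Factors known to act at nuclear genes for mitochondria are NRF1, the ETS family factor GABP and YY1, and a bidirectional start is common among such genes. The stretches between 4 pairs of starts are shown because they hold the sequence that members share with their neighbours. Each is from the RefSeq assembly GRCm38.p6, 5′ to 3′ on the strand of the gene named first, running from 20 bases inside the partner to 20 bases inside the gene, and capitals mark a match on either strand to NRF1 (GCGCATGCG) or ETS (CCGGAAG). Of these, Mrpl46 lies at chr7:78783070-78783150 on the minus strand, Mrpl43 at chr19:45006423-45006577 on the minus strand, Mrps27 at chr13:99344659-99344805 on the plus strand and Mrpl32 at chr13:14613018-14613261 on the minus strand.
Mrpl46 (partner Mrps11): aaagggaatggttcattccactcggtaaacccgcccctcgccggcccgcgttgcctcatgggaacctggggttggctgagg
Mrpl43 (partner Peo1): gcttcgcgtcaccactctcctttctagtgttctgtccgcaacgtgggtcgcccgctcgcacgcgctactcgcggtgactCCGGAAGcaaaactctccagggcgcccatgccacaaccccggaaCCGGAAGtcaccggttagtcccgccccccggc
Mrps27 (partner Ptcd2): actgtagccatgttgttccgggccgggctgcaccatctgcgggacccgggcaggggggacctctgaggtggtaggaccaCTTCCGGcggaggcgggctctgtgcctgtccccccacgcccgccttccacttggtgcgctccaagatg
Mrpl32 (partner Psma2): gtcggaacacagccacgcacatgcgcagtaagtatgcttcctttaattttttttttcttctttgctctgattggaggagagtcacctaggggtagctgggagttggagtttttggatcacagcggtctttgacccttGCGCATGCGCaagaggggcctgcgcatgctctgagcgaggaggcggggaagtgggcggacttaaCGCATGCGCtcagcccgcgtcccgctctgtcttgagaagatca
The stretch of Mrpl46 and Mrps11 held no match to these motifs. That of Mrpl43 held ETS at 2 places and that of Mrps27 at 1. In that of Mrpl32 NRF1 matched at 2 places, of which the first reads the same on both strands. A match describes the letters only.

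The genes at both ends of such a stretch differed in their ratios in some pairs. Mrpl46 had 7.30 FPKM in R, 5.80 FPKM in P and 6.48 FPKM in N, a ratio of R over N of 1.13 (0.88 to 1.45), beside 1.47 for Mrps11, and these intervals overlap. Mrpl43 had 32.4 FPKM in R, 29.3 FPKM in P and 33.4 FPKM in N, and its partner Peo1, the helicase of mitochondrial DNA, had 7.19 FPKM in R, 6.48 FPKM in P and 6.01 FPKM in N. Mrps27, which belongs to the pentatricopeptide repeat proteins, had 7.82 FPKM in R, 6.96 FPKM in P and 7.00 FPKM in N, and its partner Ptcd2, of the same repeat family, had 6.36 FPKM in R, 5.97 FPKM in P and 5.10 FPKM in N. Mrpl32 is paired with Psma2, a proteasome subunit. Mrpl32 had 7.51 FPKM in R, 9.65 FPKM in P and 8.41 FPKM in N. Psma2 had 71.9 FPKM in R, 50.9 FPKM in P and 51.9 FPKM in N, with a ratio of R over P of 1.41 (1.29 to 1.54) that does not overlap that of Mrpl32. Similarly, Mrpl30 had a ratio of R over N of 1.09 (0.99 to 1.20) and its partner Mitd1 one of 2.37 (2.03 to 2.78), and Mrpl49 one of 1.07 (0.95 to 1.21) beside 0.68 (0.66 to 0.70) for Fau, which encodes a cytosolic small subunit protein.

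Promoter windows of RefSeq, 250 bases before to 50 bases after the start, were found for 68 of the 77 genes. The ETS motif stood in 24 of 68 windows (35.3%), against 11.6% of 21262 windows of protein coding genes. NRF1 stood in 7 (10.3%), against 2.35%, and YY1 (AAGATGGCG) in 8 (11.8%), against 1.83%. The E-box (CACGTG), which was counted on both strands like the others, stood in 5 (7.35%), against 7.84%. No overlap between the motifs was removed. For each member the window nearest the start of its main RefSeq transcript was taken. The background holds all windows of protein coding genes, whether or not they passed the filter, so the sets are unlike. The windows with NRF1 belonged to Mrpl9, Mrpl10, Mrpl17, Mrpl22, Mrpl32, Mrpl39 and Mrps18b, and those with YY1 included Mrps11 and Mrpl42.

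**Figure D5:**
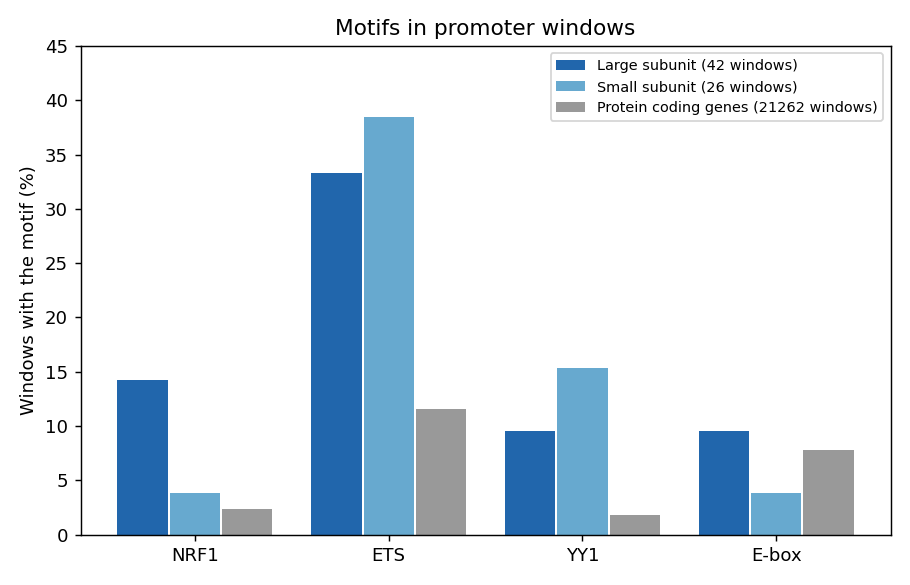
Percent of promoter windows (y axis) that hold each motif, for 42 large subunit genes, 26 small subunit genes and 21262 windows of protein coding genes. ETS is the most frequent in both subunits at 33.3% and 38.5%, and the E-box stands near its share among protein coding genes in the large subunit at 9.52%.

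In R over N and in R over P the cytosolic ribosome differed in direction from the mitochondrial one. Of its 76 protein genes past the filter 3 were higher and 73 lower in R than in N, with a median log2 ratio of −0.28, where the 77 mitochondrial genes had 0.16. In R over P the cytosolic median was −0.18, where the 77 genes had 0.20. In P over N both medians were negative, at −0.09 for the cytosolic genes and −0.05 for the 77. The cytosolic genes took 10.04% of all FPKM in R, 11.4% in P and 11.9% in N, and their sum was 24.7 times that of the mitochondrial genes in R, 31.0 times in P and 31.6 times in N. For R over N the split of 3 and 73 was the same with TPM and after rescaling, while the 77 genes were higher in R for 59 with TPM and for 49 after rescaling. FPKM is relative to the library, so these shares are not independent of each other.

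Nuclear genes of oxidative phosphorylation, whose complexes take in the products of the mitochondrial ribosome, had medians nearer to those of the 77 genes than the cytosolic ribosome had. Over 78 genes their median log2 ratio was 0.09 in R over N, beside 0.08 for all genes. It was 0.16 in R over P and −0.07 in P over N, beside 0.03 for all genes in both. In R over N 21 of the 77 oxidative phosphorylation genes compared (27.3%) were higher beyond counting error, against a background of 34.2%. Their summed FPKM was 5839 in R, 5601 in P and 5984 in N, and so was lower in R than in N. Mitoribosome proteins under other symbols, 7 of 8 listed, lay lower, at a median of 0.03 in R over N and 0.06 in the comparison of R with P.

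Factors that work with the mitochondrial ribosome were higher in R than in N for 13 of 14 translation factors measured, where 60.3% of all genes were, with a median log2 ratio of 0.18. For 3 of the 14 (21.4%) the difference was beyond counting error, below the background of 34.2%. Mtif2, the initiation factor that brings the first tRNA, had 5.13 FPKM in R, 4.45 FPKM in P and 3.34 FPKM in N. Lrpprc, which binds and stabilises mitochondrial mRNAs, had 10.8 FPKM in R, 7.74 FPKM in P and 7.54 FPKM in N. Gfm1, an elongation factor, had 10.1 FPKM in R, 8.12 FPKM in P and 7.58 FPKM in N. The exception was Tufm, the elongation factor that carries tRNAs and the most abundant of the list, with 28.0 FPKM in R, 30.6 FPKM in P and 30.4 FPKM in N.

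Of 22 assembly and rRNA modification factors 18 (81.8%) were higher and 4 lower in R than in N, where 60.3% of all genes were higher, with a median log2 ratio of 0.20. For 7 of the 22 (31.8%) the higher level was beyond counting error, near the background of 34.2%. Ddx28, a helicase for the large subunit, had 8.75 FPKM in R, 5.61 FPKM in P and 5.87 FPKM in N. Mpv17l2, an inner membrane protein of ribosome assembly, had 18.4 FPKM in R, 11.2 FPKM in P and 13.8 FPKM in N. Tfb1m, which methylates the small subunit RNA, had 2.04 FPKM in R, 2.09 FPKM in P and 1.29 FPKM in N, and so was low in N alone. Regulators of mitochondrial genes did not share 1 direction, with 5 of 11 higher in R than in N. Pprc1, a coactivator of the PGC-1 family, had 12.4 FPKM in R, 6.52 FPKM in P and 7.59 FPKM in N. Myc had 40.0 FPKM in R, 32.7 FPKM in P and 52.7 FPKM in N, and Yy1 had 24.0 FPKM in R, 33.2 FPKM in P and 31.5 FPKM in N. The mRNAs and rRNAs that mitochondrial DNA encodes were not analysed here.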

How the data were processed

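The members and the gene lists were chosen with earlier results of these data known. Alignment was by HISAT2 2.2.0, and StringTie (2.1.3 by the submitters' processing notes, 2.1.5 per the file headers) quantified transcripts from RefSeq and from assembly. Each transcript line that the authors deposited holds its coverage, its FPKM and its TPM. The authors' FPKM is relative to the aligned bases of a library and the deposited TPM is FPKM rescaled to a fixed total. The notes name mm9, but 99.4% of 23360 symbols overlapped their gene in GRCm38 coordinates, as did all 77 members, so positions are given as GRCm38. Filters on reads: not given in the sources used here.

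The level of a gene is the sum of FPKM over its RefSeq transcripts and the assembled ones placed in it by StringTie locus or same strand exon overlap. Log2 ratios used a pseudocount of 0.1 FPKM, which understates the change of low genes, and genes were compared where 1 of the 2 libraries reached an FPKM of 1. Fragments came from coverage and length, at 300 bases per read pair. Intervals of FPKM are exact Poisson and those of ratios exact Clopper-Pearson, at 95%. No test between conditions was run, and the script was tested on simulated data. The TPM per FPKM was 2.71 in R, 2.70 in P and 2.62 in N.

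Genes named were in each comparison, the 4 top and 4 bottom log2 ratios of members of at least 5 FPKM, the 5 highest and 3 lowest mean levels per subunit, members whose symbol and place differ, the S18 paralogs, the 4 most abundant of those resting on assembled transcripts, and up to 4 members and the highest of each other list. The text gives fewer than this rule. Mrpl51, Nme3, Mrps24, Mrps17, Mrpl46 and the genes of the neighbour paragraph beside it were chosen after their values were seen. As alternatives, TPM, a pseudocount of 0.01 or of 1, median ratio rescaling, no filter or one of 5 FPKM, RefSeq transcripts only, the top transcript, members with an unshared locus, subunits by structure, and N exchanged with P were run. The software was SciPy 1.17.1, pandas 2.3.3, NumPy 2.4.6 and Matplotlib 3.10.9 under Python 3.11.15.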

Additional observations from a re-analysis of the deposited data

How the results depend on the processing

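Over 11 alternatives for 12 results, 128 of 132 values lay inside the interval of the reported median or stayed within 1.5 times of the count. That interval is taken over genes, so it says nothing of the spread between libraries. Some values could not move. All 77 genes pass the filter, and TPM, pseudocounts and rescaling cannot change the ratio of small to large subunit medians within a library. The turned sign of the small subunit given below is counted among the 128. With RefSeq transcripts only, 1 gene, Mrps17, was 2-fold apart in R over N and 1, the same gene, in R over P, where no gene was with assembled transcripts included. The median log2 ratio of the large subunit for P over N was −0.0105 with TPM and 0.0558 with N and P exchanged, against −0.0558 as reported, and the exchange turns its sign round by construction, as it does for the small subunit (0.0532 against −0.0532). No other median changed sign under any of these alternatives. Rescaling moved the median of all genes by −0.07 for R over N and TPM moved it by 0.05. For R over N, 49 genes were higher and 28 lower after rescaling, against 56 and 21 on FPKM. Leaving out a replicate was not possible, and no paired analysis was possible because each condition has 1 library. The interval of the ratio held 1 in 48 of 77 genes for R over N, in 37 for R over P and in 63 for P over N. Over all genes compared it lay above 1 for 34.2% and below 1 for 19.7% in R over N. These shares were 30.7% and 24.6% in R over P, and 22.1% and 15.4% in P over N. The same shares of the 77 are given with each comparison above. Whether depth or small differences account for these counts was not tested.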
